A study of Mus with 6 samples.

Results

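The genes described here are 7 genes of MHC class I antigen presentation and the gene of the checkpoint ligand PD-L1, 8 in all out of 35304 Ensembl gene IDs in the count table. They were chosen by name and ID: B2m (ENSMUSG00000060802), H2-K1 (ENSMUSG00000061232), H2-D1 (ENSMUSG00000073411), Tap1 (ENSMUSG00000037321), Psmb8 (ENSMUSG00000024338), Psmb9 (ENSMUSG00000096727), Nlrc5 (ENSMUSG00000074151) and Cd274 (ENSMUSG00000016496). All 8 have a row in the table. The libraries are RNA-seq libraries of total RNA from 4T1 cells, a mouse mammary carcinoma line derived from the BALB/c background. One group of 3 samples received 10 µg/mL isopimaric acid (IPA), a plant diterpene acid that the series title calls an ion channel regulator, for 24 h, and the other group of 3 samples was left untreated. Both groups are the same cell line in the same medium, and no vehicle is named for the untreated cells. Separate cultures are not stated in the labels; the p-values therefore speak of these samples alone, and the spread behind them may be technical. The defining markers of 4T1 cells were not checked here, since the sources used here do not pair the other IDs with names.

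MHC class I molecules carry fragments of a cell's own proteins to its surface, where cytotoxic T cells read them. The proteasome cuts the fragments, and an inducible set of catalytic subunits, which includes those encoded by Psmb8 and Psmb9, changes which fragments are made. The TAP transporter, of which Tap1 encodes a subunit, pumps them into the endoplasmic reticulum, where they are loaded onto a heavy chain such as H2-K1 or H2-D1 paired with the light chain beta-2-microglobulin (B2m). Nlrc5 encodes a transactivator of class I genes, and interferon-gamma raises most genes of the pathway together with PD-L1, the ligand through which a tumour cell restrains T cells carrying PD-1. In tumours, loss of this pathway is a known route of immune escape.

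After IPA, none of the 7 genes that passed the filter on low counts passed the test for a difference from untreated cells, and Psmb8 did not pass that filter. B2m came nearest: its level averaged 122 ± 17.7 CPM (read counts scaled to a common library total) with IPA and 188 ± 78.5 CPM in untreated cells (SD, n = 3 each). The fitted folds of the heavy chains, Tap1 and Nlrc5 ran from 0.888 to 1.32 over both comparisons made. The 95% intervals of Psmb9 and Cd274 were the widest of the 7 in both. Untreated replicate 2 stood apart from all other libraries, and in it B2m was 1.95 times, and Cd274 0.321 times, the mean CPM of the other untreated libraries (2.65 and 0.435 times with TMM factors).

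Library totals ranged from 3410411 counts in IPA replicate 1 to 58924711 counts in untreated replicate 2. A count of 3 thus corresponds to 0.88 CPM in IPA replicate 1 and to 0.0509 CPM in untreated replicate 2, and such floors cover counting error only. Across genes, log2 CPM of untreated replicate 2 correlated with the other 5 libraries at 0.781 to 0.817, whereas those 5 correlated with each other at 0.919 to 0.987. Each fold change is therefore given over all 6 libraries and again without untreated replicate 2, which leaves 3 IPA libraries against 2 untreated ones. Which property of that library sets it apart was not tested.

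The question of the comparison is which genes respond to IPA. Over all 6 libraries, 7 of the 8 genes passed the filter on low counts and 0 of these 7 were called by edgeR's quasi-likelihood test at a Benjamini-Hochberg adjusted p under 0.05. The background is 0% of the 24935 IDs tested, so nothing about these genes can be read from that count. None of the 7 had an unadjusted p under 0.05 (0 of 7), against 6.26% of all tested IDs. Leaving out untreated replicate 2, again 0 of 7 were called, against 3.46% of the 25592 IDs then tested, and 1 of 7, B2m, had an unadjusted p under 0.05, against 16.8% of all IDs. The median log2 fold change of the 7 genes tested was -0.10 over all 6 libraries, beside -0.08 over all tested IDs. The median without untreated replicate 2 was 0.19, beside -0.04 over all tested IDs. Psmb8 did not pass the filter in either comparison.

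**Figure D1:**
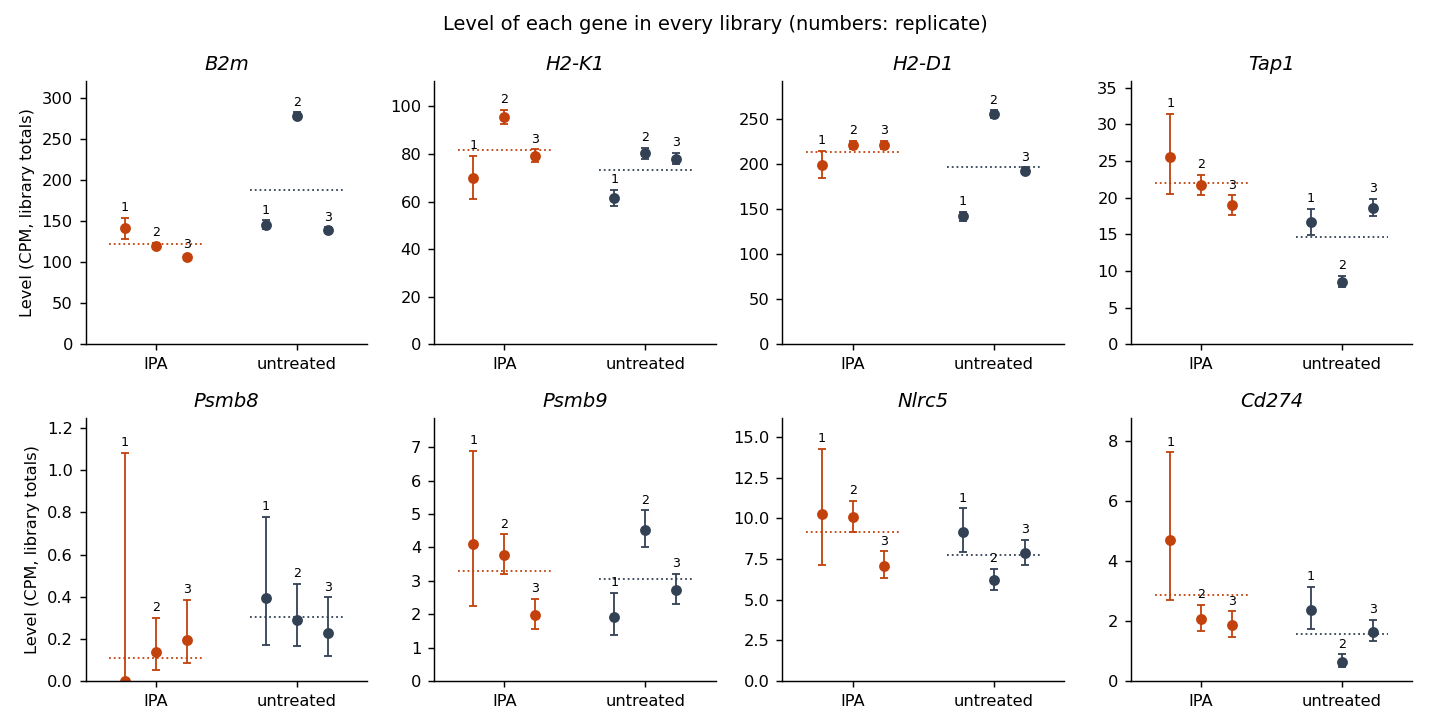
Level of each of the 8 genes in CPM of library totals (vertical axes from 0), with IPA on the left and untreated on the right of each panel; numbers mark replicates, bars are exact 95% Poisson intervals of the counts, and dotted lines are group means. Untreated replicate 2 is the highest of the 6 libraries for B2m, H2-D1 and Psmb9 and the lowest for Tap1, Nlrc5 and Cd274, and the bars are widest in IPA replicate 1, the shallowest library.

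The light chain was the member with the lowest p in both comparisons. B2m had 141, 120 and 106 CPM in IPA replicates 1, 2 and 3, against 145, 278 and 139 CPM in untreated replicates 1, 2 and 3. IPA replicate 1 lay between untreated replicates 3 and 1, so the groups overlapped on this scale. When library sizes were corrected with TMM factors the groups no longer overlapped, with 100 to 127 CPM with IPA and 136 to 370 CPM in untreated cells, a separation that 9.71% of all IDs showed in the same direction on that scale. Over all 6 libraries the log2 fold change was -0.94 ± 0.42 (SE), with a 95% interval from -1.93 to 0.04 (edgeR adjusted p = 0.657). It was -0.34 ± 0.14 without untreated replicate 2, with an interval from -0.62 to -0.05 and an unadjusted p of 0.0237 (edgeR adjusted p = 0.2). The fitted fold was thus 0.521 with that library and 0.792 without it, and in neither case did B2m pass. In bulk RNA, fewer cells of a kind and less RNA per cell cannot be told apart.

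Another ID had nearly the same counts as B2m. ENSMUSG00000027233 had 485, 5303 and 4402 counts in IPA replicates 1, 2 and 3, where B2m had 481, 5239 and 4340. In untreated replicates 1, 2 and 3 it had 2985, 16444 and 7455 counts, where B2m had 2944, 16384 and 7358. The ID exceeded B2m by at most 1.43% in any library. In the RefSeq annotation of GRCm38.p6, B2m lies at chr2:122147687-122153082, and all of its 5396 bases fall inside the span of 1 other gene, Patl2. The sources used here do not pair the ID with a name, and the values given for B2m are uncertain to the extent that reads were counted for both. No other member had an ID within 2% of it in every library.

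The classical heavy chains, which present the peptide, showed no called difference. H2-K1 lies at chr17:33996012-34000619 and H2-D1 at chr17:35263094-35267497 in the same RefSeq annotation. H2-K1 had 69.8, 95.7 and 79.2 CPM in IPA replicates 1, 2 and 3, against 61.5, 80.3 and 78.0 CPM in untreated replicates 1, 2 and 3. The values interleave, with the highest in IPA replicate 2 and the lowest in untreated replicate 1. Its log2 fold change was -0.10 ± 0.27 (SE) over all 6 libraries, with a 95% interval from -0.74 to 0.53 (edgeR adjusted p = 0.897). It was 0.13 ± 0.15 without untreated replicate 2, with an interval from -0.19 to 0.45 (edgeR adjusted p = 0.761).

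H2-D1 had 199, 222 and 221 CPM with IPA, against 142, 256 and 193 CPM in untreated cells. The IPA libraries sat close together, with an SD of 12.9 CPM, against an SD of 56.8 CPM in the untreated libraries. All IPA values lay above untreated replicates 1 and 3 and below untreated replicate 2. With TMM factors IPA replicate 1, at 179 CPM, was below untreated replicate 3, at 189 CPM. The log2 fold change was -0.17 ± 0.34 over all 6 libraries, with a 95% interval from -0.98 to 0.64 (edgeR adjusted p = 0.867). It was 0.25 ± 0.14 without untreated replicate 2, with an interval from -0.05 to 0.55 (edgeR adjusted p = 0.408). Both heavy chains thus changed the sign of their estimate with 1 library, and over all 6 libraries also with library totals in place of TMM (0.15 for H2-K1 and 0.12 for H2-D1). All 4 intervals of the TMM fits lay within a fold of 2. Library totals moved the median log2 fold change of all tested IDs to 0.13, against -0.08 with TMM. In H2-D1, as in H2-K1, the sequence of BALB/c mice differs from that of the C57BL/6J reference, and the reference names 27 protein-coding genes of class I type on chromosome 17, so reads may be missing from or shared between these genes. How the counting treated such reads is not given in the sources used here.

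Peptide supply was represented by Tap1, Psmb9 and Psmb8, which lie side by side on chromosome 17. Psmb9 occupies chr17:34182030-34187330 and Tap1 chr17:34187556-34197225, with 225 bases between them in the RefSeq annotation of GRCm38.p6. Psmb8 follows at chr17:34198195-34201454, 969 bases beyond Tap1. Tap1 and Psmb9 are known to be transcribed from a shared promoter region.

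Tap1 had 25.5, 21.7 and 19.0 CPM in IPA replicates 1, 2 and 3, against 16.6, 8.55 and 18.6 CPM in untreated replicates 1, 2 and 3. All IPA libraries lay above all untreated ones, by a margin of less than 1 CPM between IPA replicate 3 and untreated replicate 3, a separation that 11.4% of all IDs showed in that direction. With TMM factors the groups overlapped, since IPA replicate 3 had 17.9 CPM and untreated replicate 3 had 18.2 CPM on that scale. The log2 fold change was 0.40 ± 0.27 over all 6 libraries, with a 95% interval from -0.24 to 1.05 (edgeR adjusted p = 0.665). Without untreated replicate 2, whose Tap1 level in CPM was 0.485 times the mean of the other untreated libraries, it was 0.19 ± 0.19, with an interval from -0.21 to 0.59 (edgeR adjusted p = 0.707).

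Psmb9, the inducible subunit also called LMP2, had 4.11, 3.76 and 1.97 CPM with IPA, against 1.93, 4.53 and 2.72 CPM in untreated cells. The groups overlapped almost completely, and the IPA value of 4.11 CPM rests on 14 counts. The log2 fold change was -0.25 ± 0.59 over all 6 libraries (edgeR adjusted p = 0.888) and 0.29 ± 0.38 without untreated replicate 2 (edgeR adjusted p = 0.801). Its 95% intervals ran from -1.64 to 1.15 and from -0.51 to 1.08, so a change of 2-fold upwards lay within both.

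Psmb8, the inducible subunit also called LMP7, had few reads in every library, 17 at most. Its reads numbered 0, 6 and 8 in IPA replicates 1, 2 and 3, against 8, 17 and 12 in untreated replicates 1, 2 and 3. These counts correspond to 0, 0.138 and 0.195 CPM with IPA, against 0.395, 0.289 and 0.227 CPM in untreated cells. All IPA values were below all untreated ones, as in 6.42% of all IDs in that direction, but the exact 95% Poisson interval of the 0 counts in IPA replicate 1 reaches 1.08 CPM, above the level of every other library. Those of the other libraries overlap, for example from 0.0842 to 0.384 CPM in IPA replicate 3 and from 0.117 to 0.396 CPM in untreated replicate 3. Psmb8 did not pass the filter on low counts, so neither main comparison tested it. With no filter its log2 fold change was -1.28 over all 6 libraries (edgeR adjusted p = 0.732). It was -1.05 without untreated replicate 2 (edgeR adjusted p = 0.736). So few counts do not settle whether Psmb8 differed.

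Nlrc5, the transactivator that drives class I genes, had 10.3, 10.1 and 7.09 CPM in IPA replicates 1, 2 and 3, against 9.18, 6.21 and 7.89 CPM in untreated replicates 1, 2 and 3. Its extremes among untreated libraries straddle IPA replicate 3, and the groups overlapped. The log2 fold change was 0.01 ± 0.30 over all 6 libraries, with a 95% interval from -0.70 to 0.72 (edgeR adjusted p = 0.991). It was -0.03 ± 0.25 without untreated replicate 2, with an interval from -0.55 to 0.49 (edgeR adjusted p = 0.974). These were the estimates closest to 0 among the 7 genes in both comparisons, and both intervals lay within a fold of 2. The RefSeq span of Nlrc5, chr8:94434335-94527272, overlaps 2 long noncoding RNA genes and 1 microRNA gene.

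Cd274, which encodes PD-L1, had 4.69, 2.06 and 1.85 CPM in IPA replicates 1, 2 and 3, against 2.37, 0.645 and 1.65 CPM in untreated replicates 1, 2 and 3. The highest value, in IPA replicate 1, rests on 16 counts, with an exact 95% Poisson interval from 2.68 to 7.62 CPM. The lowest, in untreated replicate 2, rests on 38 counts, with an interval from 0.456 to 0.885 CPM. Between those extremes, IPA replicates 2 and 3 lay within the range of untreated replicates 1 and 3. The log2 fold change was 0.68 ± 0.64 over all 6 libraries (95% interval -0.84 to 2.19, edgeR adjusted p = 0.733). It was 0.19 ± 0.43 without untreated replicate 2 (interval -0.70 to 1.07, edgeR adjusted p = 0.895), and without IPA replicate 1 as well it was -0.07 (edgeR adjusted p = 0.937). The higher mean with IPA, 2.87 ± 1.58 CPM against 1.55 ± 0.866 CPM in untreated cells (SD, n = 3 each), thus rested on those 2 libraries. The RefSeq span of Cd274, chr19:29362107-29388095, shares 5186 bases with the protein-coding gene Plgrkt and 6203 bases with the long noncoding RNA gene Gm36043, and whether reads there were counted for both is not given in the sources used here.

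**Figure D2:**
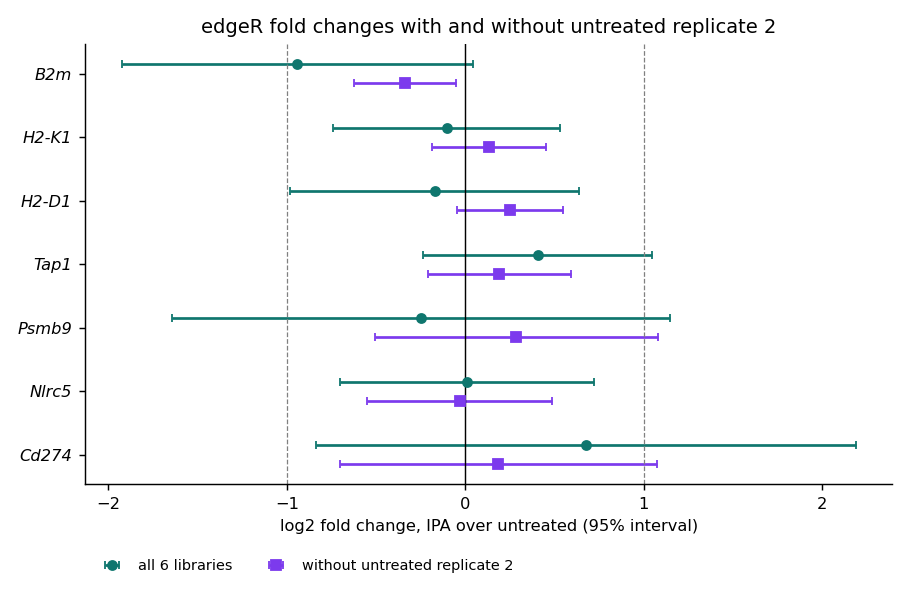
edgeR log2 fold changes, IPA over untreated, of the 7 genes that passed the filter (horizontal axis), with 95% intervals, over all 6 libraries (circles) and without untreated replicate 2 (squares); dashed lines mark a fold of 2 in either direction. The interval of B2m without untreated replicate 2, from -0.62 to -0.05, is the only one of the 14 that leaves out 0, and its adjusted p was 0.2.

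The intervals give the sizes of difference between these samples that each fit leaves possible. As separate cultures are not stated, they may not bound an effect of IPA. Untreated replicate 2 was left out knowing that it stood apart, and the intervals without it are narrower. Without untreated replicate 2, the 95% intervals of 5 of the 7 genes lay wholly within a fold of 2 in either direction; these were B2m, H2-K1, H2-D1, Tap1 and Nlrc5. Psmb9 and Cd274 were the exceptions. Over all 6 libraries the number was 3 of 7, namely H2-K1, H2-D1 and Nlrc5. The share of all tested IDs with such intervals was not counted, so these numbers cannot be read as a trait of these genes. The biological coefficient of variation, the spread between replicates beyond counting error as edgeR fits it, was 0.391 for B2m over all 6 libraries and 0.115 without untreated replicate 2. Among all tested IDs its median was 0.511 over all 6 libraries and 0.206 without that library.

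Untreated replicate 2 did not differ in 1 direction for all 8 genes. Relative to the mean of untreated replicates 1 and 3, its CPM by library totals was 1.95-fold for B2m, 1.95-fold for Psmb9 and 1.53-fold for H2-D1. It was 1.15-fold for H2-K1 and 0.928-fold for Psmb8. It was 0.728-fold for Nlrc5, 0.485-fold for Tap1 and 0.321-fold for Cd274. TMM scales all genes of a library by 1 factor, here 0.754 in untreated replicate 2 and 1.02 in untreated replicates 1 and 3. Every such ratio therefore had to rise with TMM. Psmb8 turned to 1.26-fold, H2-K1 was 1.56-fold and Nlrc5 0.987-fold, while Tap1 at 0.658-fold and Cd274 at 0.435-fold stayed below 1. The summed level of the 8 genes was 634 CPM in that library, against 379 and 441 CPM in untreated replicates 1 and 3. In IPA replicates 1, 2 and 3 the sum was 454, 475 and 436 CPM, and these values lay between the lowest and the highest untreated library.

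Ratios between genes of the same library do not depend on how library size is corrected. The ratio of H2-D1 to B2m counts was 1.41, 1.84 and 2.09 in IPA replicates 1, 2 and 3, against 0.978, 0.919 and 1.39 in untreated replicates 1, 2 and 3. The groups did not overlap, but IPA replicate 1 and untreated replicate 3 were nearly equal. The mean log2 ratio differed by 0.71 (exact permutation p = 0.1, two-sided, which is the lowest value that 3 samples against 3 allow; adjusted p = 0.175 over the 7 ratios to B2m). The difference without untreated replicate 2 was 0.60 (exact permutation p = 0.2).

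The ratio of H2-K1 to B2m was 0.495, 0.796 and 0.749 with IPA, against 0.423, 0.289 and 0.561 in untreated cells. Here the groups overlapped, with a log2 difference of 0.70 (exact permutation p = 0.2). The ratio of Tap1 to B2m was 0.181, 0.181 and 0.179 in IPA replicates 1, 2 and 3, against 0.114, 0.0308 and 0.134 in untreated replicates 1, 2 and 3. It was nearly constant among the IPA libraries and higher than in each untreated library, with a log2 difference of 1.21 over all 6 libraries and 0.54 without untreated replicate 2 (exact permutation p = 0.1 in both, the smallest possible). In IPA replicate 1 the ratio rests on 87 Tap1 counts, whose exact 95% Poisson interval is 20.4 to 31.5 CPM. The near equality is thus closer than counting error in that library, and nothing is read from it.

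Of the 6 tested genes other than B2m, the ratio to B2m was higher in all IPA than in all untreated libraries for 4, namely H2-D1, Tap1, Nlrc5 and Cd274. The same held for 26.6% of the 24934 other tested IDs, and the ratios share their denominator, so they do not count as independent genes. The ratio of the heavy chains to each other did not follow the groups: H2-D1 to H2-K1 was 2.85, 2.32 and 2.79 with IPA, against 2.31, 3.18 and 2.47 in untreated cells (log2 difference 0.0067, exact permutation p = 0.9). The ratio of Psmb9 to its neighbour Tap1 was 0.161, 0.173 and 0.104 with IPA, against 0.116, 0.53 and 0.146 in untreated cells (exact permutation p = 0.7). The value of 0.53 in untreated replicate 2 lay far above the other 5.

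**Figure D3:**
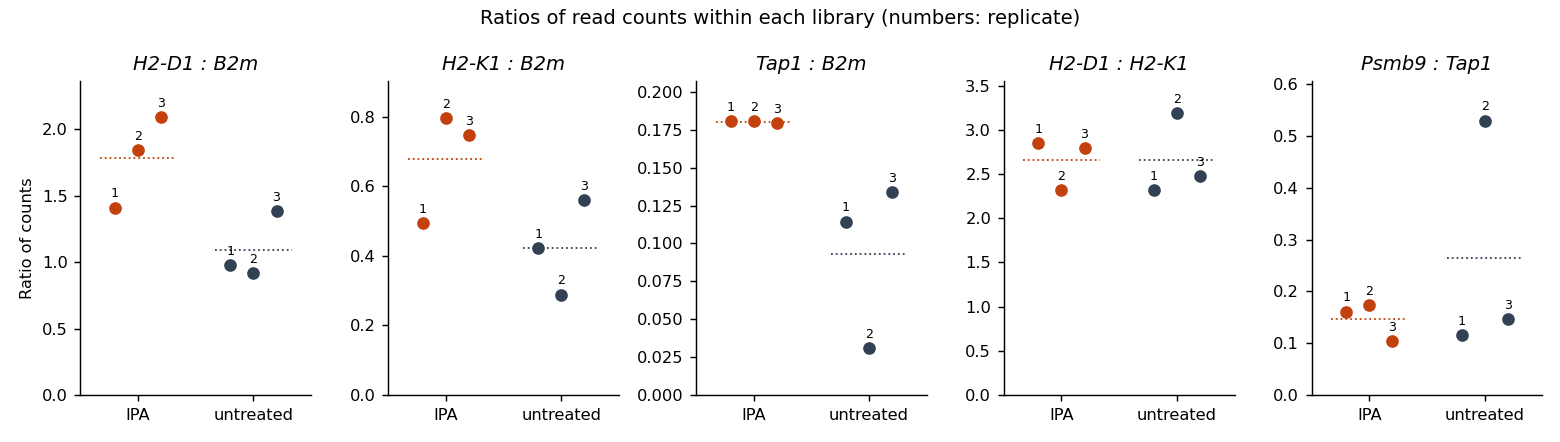
Ratios of read counts between pairs of genes within each library (vertical axes from 0), with IPA on the left and untreated on the right of each panel; numbers mark replicates and dotted lines are group means. H2-D1 and Tap1 relative to B2m are higher in every IPA library than in any untreated one, H2-D1 relative to H2-K1 is not, and Psmb9 relative to Tap1 is 0.53 in untreated replicate 2 and at most 0.173 elsewhere.

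By the rule used for likeness, the IDs nearest to the mean log2 profile of the 8 genes over the 5 libraries without untreated replicate 2 were ENSMUSG00000016356 and ENSMUSG00000064215. Their Pearson's r with that profile was 0.998 and 0.992, the highest among 13072 IDs averaging 5 CPM or more. With 5 points and that many candidates, this is a description of these libraries only. The profile is a plain mean of the 8 centred genes, not scaled by their spread. A gene with larger log2 differences between libraries therefore shapes it more. Psmb8 had 0 counts and Cd274 had 16 in IPA replicate 1, so the likeness may largely follow low counts, which was not tested.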

How the data were processed

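The table the authors deposited holds whole-number read counts, with Ensembl IDs in rows and 1 column per sample, per the file headers. GRCm38 and mm10 are the builds in the submitters' processing notes. The aligner and counter, with their annotation, strand setting and treatment of reads in overlapping genes, were likewise not given in the sources used here. Headers IA1 to IA3 were matched by letters and number to the titles of the IPA samples. The smallest total of any ID was 7 counts. Replicates differed by more than sampling noise, with a chi-square per degree of freedom of at least 6.56 within a group.

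Counts were tested with edgeR 4.0.16 (R 4.3.3; TMM factors, filterByExpr, robust quasi-likelihood F-test), with p-values adjusted over all tested IDs. The SE is the log2 fold change divided by the square root of F, and the 95% interval uses the moderated degrees of freedom. The procedure was tested on simulated data. CPM values use library totals unless TMM is named. For log2 ratios, the prior count added before log2 CPM was 2, and ratios printed per library are of raw counts.

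The 8 members and all lists were chosen with earlier results of these data known. The rule for named genes took all 8 members and, from 9 lists of 106 symbols for the wider pathway and other cell types, the called genes. The reference table, of 49997 genes, has 0 Ensembl IDs, so 0 of these symbols were matched and the lists were not analysed here. Member names come from the definition of the set, and positions from RefSeq GRCm38.p6 by symbol. No sequence is shown.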

Additional observations from a re-analysis of the deposited data

How the results depend on the processing

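No member was called under any of 27 alternative fits (14 over all 6 libraries and 13 without untreated replicate 2), which used DESeq2 1.42.0, limma-voom 3.58.1, other normalization factors, other filters, the replicate block, or 1 library fewer. Among the 14, the fit that left out untreated replicate 2 is the second main comparison itself. The lowest adjusted p was 0.0643, for H2-D1 without untreated replicates 2 and 3. B2m stayed lower with IPA in all 27, from -1.16 to -0.22 on the log2 scale, and Tap1 stayed higher, from 0.12 to 0.59. All of these fits reuse the same libraries. The groups of B2m with TMM factors and of Tap1 in CPM did not overlap, so leaving out 1 library could hardly reverse them. The shared direction is therefore no further support for a difference. Psmb8, tested only where the filter let it pass, ran from -1.75 to -1.05.

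Some directions reversed. Over all 6 libraries, library totals gave 0.15 for H2-K1, 0.12 for H2-D1 and 0.075 for Psmb9; Nlrc5 was -0.027 with limma-voom, -0.024 with the filter at 1 CPM and -0.023 with upper-quartile scaling. With 1 of the 6 libraries left out, H2-K1 ran from -0.23 to 0.13, H2-D1 from -0.33 to 0.25, Psmb9 from -0.45 to 0.29 and Nlrc5 from -0.069 to 0.16. Without untreated replicate 2, Nlrc5 was 0.074 with library totals and 0.0048 with no filter, and H2-K1 was -0.0086 with the replicate block. With a further library left out, H2-K1 ran from -0.014 to 0.31, Nlrc5 from -0.15 to 0.17 and Cd274 from -0.094 to 0.48; where 1 untreated library was left, it is assumed to vary like the IPA libraries.

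The number of IDs called over the whole table depended more on the setting. Over all 6 libraries it was 0 higher and 0 lower, DESeq2 called 22 higher and 63 lower, library totals and no filter called 1 higher each, and leaving out 1 library gave 0 to 322 higher and 0 to 564 lower, all of them from leaving out untreated replicate 2. Without that library it was 322 higher and 564 lower; DESeq2 called 634 higher, limma-voom 660 higher and 1009 lower, library totals 691 higher and 327 lower, no filter 701 higher, and the filter at 1 CPM 357 lower. A further library left out gave 92 to 719 higher and 153 to 763 lower.

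Samples of the same number deviated from their group means with correlations of -0.0671, 0.0266 and 0.152. The untreated mean includes untreated replicate 2, which stood apart, so these values cannot exclude that the numbers pair the samples. The main fits did not pair them. With the replicate block 0 IDs were called over all 6 libraries, and 136 higher and 202 lower without untreated replicate 2. For all of these settings the cause was not tested. The ratios to B2m of H2-D1, Tap1, Nlrc5 and Cd274 were higher with IPA in each alternative. These left out 1 library or set the prior count to 0.5 or 5. The log2 differences were 0.58 to 0.89, 0.54 to 1.60, 0.31 to 1.06 and 0.63 to 1.99 in that order. With 1 library left out this direction was fixed in advance, since the groups of these ratios did not overlap. Under the same settings the ratios of H2-K1 (0.45 to 0.93) and Psmb9 (0.53 to 0.89) were also higher. For Psmb8 the ratio was lower, from -1.49 to -0.025. Depth limits IPA replicate 1 most, and with it Psmb8, Psmb9 and Cd274.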
